A study of Mus musculus with 8 samples.

Results

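The AP-1 and immediate early genes described here are 10 genes, Fos, Fosb, Fosl2, Jun, Junb, Egr1, Atf3, Maff, Nfkbiz and Zfp36, of the 32285 genes listed in single-cell RNA sequencing of mouse inguinal white adipose tissue (iWAT). Each was found by its symbol in the gene annotation of the deposited matrices, and all 10 were found. The series holds 8 libraries of stromal vascular fraction, the non-adipocyte cells freed by collagenase II digestion of the inguinal fat pad of C57BL/6 mice, made with the 10x Genomics 3′ v3 chemistry. In 4 libraries (Ad-Lib 1, 3, 5 and 7) the mice ate freely, and in 4 (TAN 2, 4, 6 and 8) food came as 2 meals each night. The study's methods place tissue collection in the dark phase, after the first meal of the night. The labels give an age of 8 weeks for both groups, whereas the study's methods describe older male mice after months of feeding. Both groups had the same strain, depot and digestion, and the study treats each library as 1 animal.

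Immediate early genes are switched on within minutes of a stimulus without new protein synthesis, mostly by MAP kinases acting through serum response factor and CREB. FOS and JUN proteins pair into AP-1, which binds DNA and drives later genes, while other members of the same response shut it down again. In adipose stroma the same genes answer to hormones, nutrients, cytokines and mechanical stress, and they are also known to be induced while tissue is digested with warm enzyme. The 10 genes were chosen by their levels in these lineages in Ad-Lib against TAN libraries, so their differences between Ad-Lib and TAN are given as a description, with no p-value. Counts of members past the call rule (an adjusted p under 0.05 in edgeR and at least 1.5-fold) stand beside the share of all genes past it, and they support nothing by themselves.

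The promoter letters are shown because these genes are commonly induced through shared elements close to the start site. Windows of 150 bases upstream of 10 RefSeq start sites (GRCm38.p6) were read for 8 of the 10 genes. Egr1 and Nfkbiz were not analysed here, and capitals mark the core of the cAMP-response element (TGACG, or CGTCA when it lies on the other strand), the CArG box bound by serum response factor, or TATAAA. The windows of Fos and Junb are given whole, and 30 bases around the match are given for the other 4 genes that held one of these elements.
Fos, chr12:85473740-85473889, plus strand: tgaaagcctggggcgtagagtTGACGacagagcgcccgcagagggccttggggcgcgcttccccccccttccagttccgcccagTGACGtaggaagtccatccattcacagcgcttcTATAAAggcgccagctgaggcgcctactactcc
Junb, chr8:84978749-84978898, minus strand: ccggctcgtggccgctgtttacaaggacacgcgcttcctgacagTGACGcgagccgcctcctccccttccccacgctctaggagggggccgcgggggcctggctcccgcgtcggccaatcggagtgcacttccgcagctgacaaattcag
Fosb, chr7:19310089-19310118, minus strand: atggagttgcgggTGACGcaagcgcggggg
Maff, chr15:79347478-79347507, plus strand: gcggctggggcggTGACGTCActgcatgac
Atf3, chr1:191183334-191183363, minus strand: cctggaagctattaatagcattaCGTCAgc
Zfp36, chr7:28379268-28379297, minus strand: cccaggccgccCCATAAAAGGagaaagctc

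TGACG on either strand was found upstream of 5 of the 8 genes. Fos held it with its first base at -129 and at -66 from the start site and had TATAAA at -33, Junb held it at -106, Fosb at -60 and Atf3 at -7. Maff held the whole palindrome TGACGTCA, which contains TGACG, at -29, and a further TGACG at -122 of another of its 3 start sites. Zfp36 was the only one of the 8 with a CArG box, which spans -58 to -49 and is a run of A and T bases between CC and GG. Among 32851 mouse windows of the same length, 13.3% held TGACG, 1.36% held TGACGTCA, 0.916% held a CArG box and 4.84% held TATAAA on the gene's strand. The AP-1 site itself, TGACTCA or its reverse complement TGAGTCA, was in 2.84% of all windows and in 0 of these 8 genes' windows. These matches describe letters, and they do not show binding.

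In the GENCODE annotation of GRCm38, Fos spans 85473890 to 85477273 of chromosome 12, Fosb 19302696 to 19310051 and Zfp36 28376784 to 28380253 of chromosome 7, and Fosl2 32135801 to 32157842 of chromosome 5. Jun lies at 95049034 to 95052222 of chromosome 4, Junb at 84974484 to 84978718 of chromosome 8 and Atf3 at 191170296 to 191218039 of chromosome 1. Maff lies at 79346621 to 79359076 of chromosome 15 and Nfkbiz at 55811375 to 55838899 of chromosome 16. All 10 are protein-coding genes, and the 3′ chemistry counts transcript ends anywhere in each gene, so isoforms are not separated.

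The files held 44427 cell barcodes and 232345333 unique molecular identifiers (UMIs, each standing for 1 captured RNA molecule), with 25320800 to 37140950 UMIs in a library, and 36370 barcodes passed the study's limits on UMIs, genes and mitochondrial share. Any 2 libraries shared 5 to 16 barcodes. Over all cells kept, the median UMIs per cell were 5060 to 6560 in Ad-Lib and 3926 to 5189 in TAN, and the median mitochondrial share was 1.76 to 2.39% in Ad-Lib and 2.69 to 3.64% in TAN, with no overlap in the latter. Cells were assigned to lineages by gates: at least 2 UMIs of 1 of Pdgfra, Pecam1, C1qa, Cd3e or Cd79a and none of the other 4. The gates held 6400 Pdgfra, 6064 Pecam1, 3958 C1qa, 1197 Cd3e and 1737 Cd79a cells, and levels are in CPM, the gene's UMIs summed over a gate in 1 library and scaled to 1000000 UMIs of that gate in that library. A smaller share of expressing cells and less RNA in each cell cannot be told apart in such a sum.

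Each gate carried the markers of its lineage. Summed stromal markers stood at 25364 to 37602 CPM in the Pdgfra gate, endothelial markers at 5962 to 7462 in the Pecam1 gate, macrophage markers at 10937 to 13872 in the C1qa gate, T cell markers at 3095 to 4159 in the Cd3e gate and B cell markers at 8970 to 79460 in the Cd79a gate.

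Levels differed first by cell type. Fos, the AP-1 subunit best known as an early-response gene, averaged 4562 ± 449 CPM in C1qa macrophages (SD, n = 8 libraries) and 4023 ± 583 in Pdgfra stromal cells. It averaged 2455 ± 701 in Pecam1 endothelial cells, 798 ± 657 in Cd3e T cells and 691 ± 517 in Cd79a B cells. The neighbouring pairs C1qa and Pdgfra, and Cd3e and Cd79a, lay within one another's spread. In edgeR's quasi-likelihood test with the library as a block and Benjamini-Hochberg adjustment over 13255 genes, Fos was lower in Pecam1 than in Pdgfra cells by a log2 difference of -0.91 ± 0.31 (SE, adjusted p = 0.00848), whereas the difference of C1qa from Pdgfra was 0.24 ± 0.31 (adjusted p = 0.495).

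The same test separated the members by lineage, with a call at an adjusted p under 0.05 and at least 1.5-fold. In Pecam1 cells 8 of 10 members were called lower than in Pdgfra cells and 0 higher, where 49.3% of all genes were called in either direction. The 2 members not called were Fosl2, a FOS family subunit of slower kinetics (log2 -0.24 ± 0.11, adjusted p = 0.0414), and Junb, a JUN subunit that restrains Jun (-0.27 ± 0.12, adjusted p = 0.0433), both short of the 1.5-fold limit. In Cd3e cells 9 of 10 were called lower (61.5% of all genes called in either direction), with Jun lower by a log2 difference of -4.54 ± 0.31 (adjusted p = 2.9e-16) and Egr1, a zinc finger factor driven by serum response factor, by -4.22 ± 0.29 (adjusted p = 2.47e-16). Fosl2 was the exception, at 0.18 ± 0.13 (adjusted p = 0.195). In Cd79a cells all 10 were called lower (62.4% of all genes called), from Junb at -1.29 ± 0.12 to Egr1 at -4.39 ± 0.29.

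In C1qa cells 3 of 10 members were called higher than in Pdgfra cells and 1 lower, a smaller share than the 54.4% of all genes called in either direction. Nfkbiz, which encodes the nuclear IκBζ protein that modulates NF-κB targets, averaged 1038 ± 152 CPM in C1qa cells against 187 ± 44.6 in Pdgfra cells (SD, n = 8), a log2 difference of 2.52 ± 0.15 (adjusted p = 2.24e-18, edgeR). Atf3, a stress-induced repressor of the ATF family, was higher by 1.34 ± 0.29 (adjusted p = 8.34e-05). Zfp36, which encodes tristetraprolin and promotes decay of AU-rich mRNAs including its own, was higher by 0.76 ± 0.20 (adjusted p = 7e-04). Maff, a small MAF factor without a transactivation domain, was lower by -0.82 ± 0.13 (adjusted p = 7.59e-07). The other 6 members were not called.

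**Figure D1:**
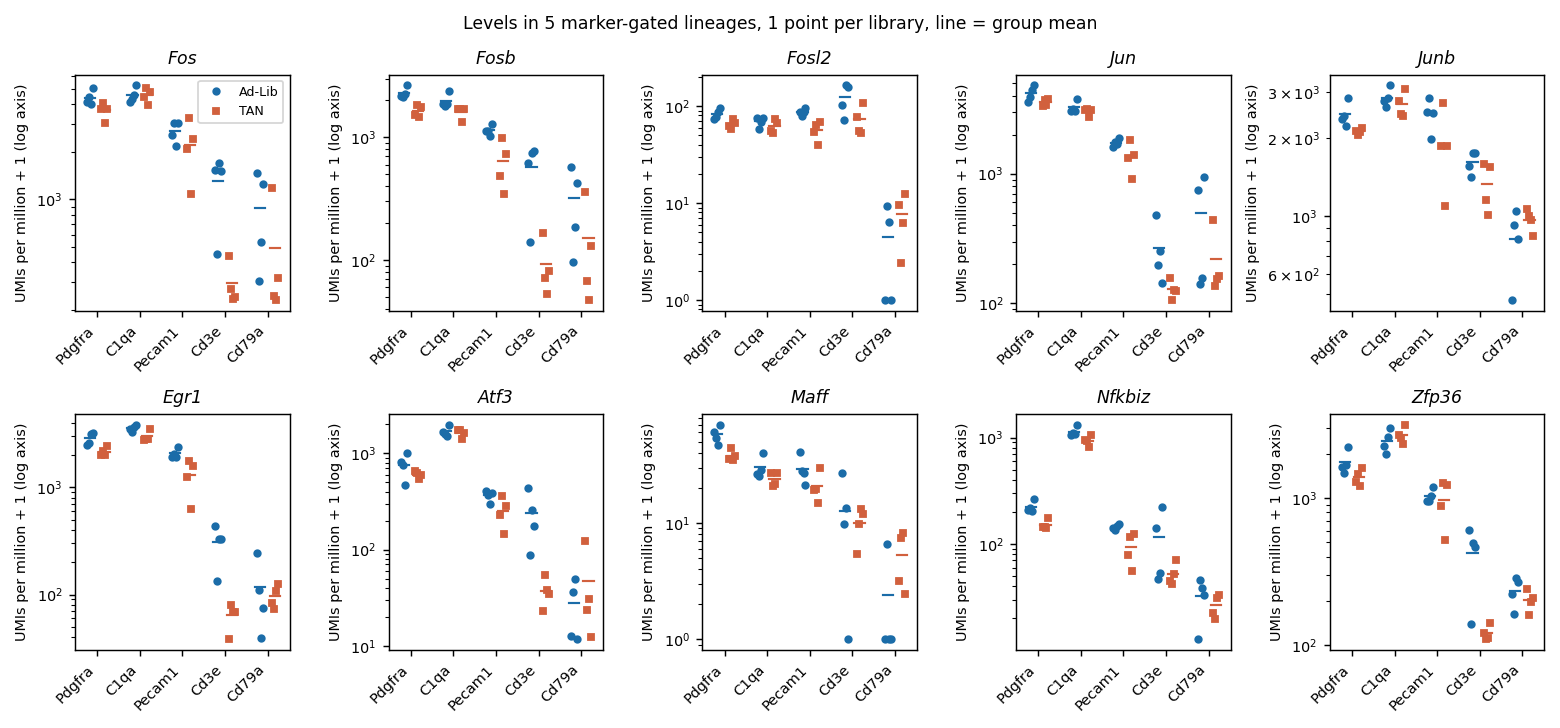
Levels of the 10 genes in 5 lineage gates, in CPM plus 1 on a log axis, with 1 point per library and the line at the group mean. Nfkbiz stands highest in the C1qa gate (1038 ± 152), and Fos runs from 4562 ± 449 in C1qa cells to 691 ± 517 in Cd79a cells.

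Within the Pdgfra gate the progenitors of adipose stroma were split by pairs of genes into 2063 Dpp4/Pi16 cells, 1449 Icam1/Col15a1 cells and 1003 F3/Gdf10 cells, each with at least 2 UMIs of its pair and more than 2 times the UMIs of either other pair. Dpp4 and Pi16 mark interstitial progenitors, Icam1 and Col15a1 committed preadipocytes, and F3 and Gdf10 the stromal cells known as adipogenesis regulators. Icam1/Col15a1 cells had 3 members called higher than in Dpp4/Pi16 cells and 3 called lower, where 26.9% of 10645 genes were called in either direction. Jun was higher by a log2 difference of 1.19 ± 0.07 (adjusted p = 6.84e-16, edgeR), Zfp36 by 0.90 ± 0.08 (adjusted p = 8.17e-11) and Fosb, a FOS subunit with a dominant-negative splice form, by 0.76 ± 0.08 (adjusted p = 1.6e-09). Fosl2 was lower by -1.71 ± 0.09 (adjusted p = 2.17e-16), Maff by -1.02 ± 0.12 (adjusted p = 3.22e-08) and Atf3 by -0.75 ± 0.10 (adjusted p = 1.35e-07).

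So the 3 FOS genes did not share 1 order over the subsets. Fosl2 averaged 127 ± 20.1 CPM in Dpp4/Pi16, 57.9 ± 13.9 in F3/Gdf10 and 40.36 ± 11.02 in Icam1/Col15a1 cells (SD, n = 8), the reverse of the order of Fosb. F3/Gdf10 cells differed from Dpp4/Pi16 cells in 4 members, with Jun (0.80 ± 0.06) and Zfp36 (0.71 ± 0.08) higher and Fosl2 (-1.26 ± 0.09) and Maff (-1.05 ± 0.14) lower, where 22.7% of all genes were called. Between F3/Gdf10 and Icam1/Col15a1 cells 0 of 10 members were called by edgeR and 5.89% of all genes were. The unadjusted p was under 0.05 for 8 of the 10, and 5 (Fos, Fosb, Fosl2, Jun and Egr1) passed the adjusted threshold with a difference of less than 1.5-fold.

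Between Ad-Lib and TAN, Icam1/Col15a1 cells are described first. There all 10 members had a lower mean in TAN than in Ad-Lib, with a median log2 change of -0.55 and a range from -1.04 to -0.24, against a median of 0.01 over all 9759 genes tested. Of the 10, 6 had every TAN library below every Ad-Lib library, as had 2.89% of all genes tested. The 3 genes Fosl2, Maff and Nfkbiz were past the call rule for lower in TAN, as were 0.932% of all genes. Since this contrast chose the genes, nothing is read from these counts. The capillary, mural and arterial gene lists, all at low levels, were higher in TAN in these cells, each without overlap. Capillary genes summed to 32.6 to 58.92 CPM in Ad-Lib and 68.95 to 96.79 in TAN, mural markers to 19.07 to 49.34 and 52.56 to 76.69, and arterial genes to 42.78 to 61.16 and 61.2 to 72.69, and their part in the members' levels was not tested.

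The values in each library show how these numbers arose. Nfkbiz stood at 260.8, 240.4, 217.3 and 267.5 CPM in Ad-Lib 1, 3, 5 and 7 and at 105.5, 126.1, 121 and 137.5 in TAN 2, 4, 6 and 8, a log2 change of -1.04 ± 0.11 (SE). The groups were far apart, with the highest TAN library well under the lowest Ad-Lib library. Maff stood at 39.42, 50.69, 41.59 and 54.22 in Ad-Lib and at 17.59, 27.82, 25.62 and 25.54 in TAN, a change of -0.97 ± 0.16. Its groups did not overlap either, at a low level that rests on fewer UMIs. Fosl2 stood at 46.24, 45.11, 57.9 and 49.16 in Ad-Lib and at 28.85, 26.05, 32.74 and 36.84 in TAN, a change of -0.70 ± 0.14 without overlap.

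The log2 differences of the abundant AP-1 subunits were smaller. Fos stood at 5096, 5353, 5199 and 5828 CPM in the Ad-Lib libraries and at 4405, 4422, 3335 and 4477 in the TAN libraries (-0.39 ± 0.13), and TAN 6 lay far below the other 3. Fosb stood at 2798, 2655, 2941 and 3249 in Ad-Lib and at 1962, 2095, 1798 and 2075 in TAN (-0.58 ± 0.11). Neither gene's groups overlapped. Egr1 likewise did not overlap, at 3036, 3114, 3936 and 3741 in Ad-Lib and 2221, 2355, 2087 and 2799 in TAN (-0.57 ± 0.11). In contrast, Jun (4943 to 6308 in Ad-Lib, 4318 to 4973 in TAN), Junb (2577 to 3294 and 2290 to 2640), Zfp36 (1799 to 2628 and 1393 to 1963) and Atf3 (360.8 to 870.1 and 390 to 577.6) overlapped between the groups. Of these, Atf3 was the most scattered, since Ad-Lib 5 had the lowest value of all 8 libraries.

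F3/Gdf10 cells gave like values. All 10 members had a lower mean in TAN, with a median log2 change of -0.51 against 0.01 over all genes. Median UMIs per cell were 10222 to 11486 in Ad-Lib and 7738 to 9993 in TAN, without overlap. The part of this depth in the members' levels was not tested. Nfkbiz stood at 209.1, 174.8, 162.4 and 283 CPM in Ad-Lib and at 84.75, 107.9, 145.4 and 153.1 in TAN (-0.86 ± 0.18), and Fosb at 2367, 2443, 2198 and 2628 against 1435, 1577, 1620 and 1801 (-0.64 ± 0.11), both without overlap. Maff stood at 47.3, 41.65, 43.61 and 44.8 in Ad-Lib and at 17.32, 29.88, 9.233 and 35.15 in TAN (-0.999 ± 0.226), a wide spread in TAN that still lay below Ad-Lib. Its TAN values rest on only 28, 18, 4 and 28 UMIs. Nfkbiz, Fosb and Maff were past the call rule, as were 0.532% of all genes. Together with Egr1, Junb and Zfp36 they made 6 members with all TAN libraries below all Ad-Lib libraries, as were 1.83% of all genes, whereas Fos, Fosl2, Jun and Atf3 overlapped.

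In Dpp4/Pi16 cells the values of Ad-Lib and TAN overlapped. Fos stood at 3161, 3319, 2330 and 3794 CPM in Ad-Lib and at 3466, 3821, 2258 and 3158 in TAN (0.01 ± 0.16), with the highest and lowest libraries both in TAN. Nfkbiz stood at 174.5, 238.3, 156.3 and 246.2 in Ad-Lib and at 222.8, 213.1, 150.5 and 214 in TAN (-0.01 ± 0.15), fully overlapping. No member's groups were apart (1.97% of all genes had all TAN libraries below) and 0 of 10 were past the call rule (0.139% of all genes). The median log2 change was -0.10 with 9 of 10 members lower in TAN, the largest were Maff at -0.30 ± 0.16 and Fosl2 at -0.27 ± 0.10, and the median ran from -0.21 without Ad-Lib 5 to 0.02 without Ad-Lib 7. Whether the change differed between the subsets was not tested, since the contrast had chosen the genes.

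The undivided Pdgfra gate lay between these subsets, with a median log2 change of -0.38 and 10 of 10 members lower in TAN. Maff (-0.64 ± 0.13) and Nfkbiz (-0.60 ± 0.10) were past the call rule, as were 0.580% of all genes, and 6 members had all TAN libraries below all Ad-Lib libraries, as had 2.70% of all genes. The make-up of the gate differed too: Dpp4/Pi16 cells were 27.5 to 33.5% of Pdgfra cells in Ad-Lib and 34.0 to 35.4% in TAN, while the shares overlapped for Icam1/Col15a1 cells (19.2 to 27.5% and 16.4 to 28.5%) and F3/Gdf10 cells (14.7 to 17.7% and 12.1 to 21.3%). Median UMIs per cell were 10393 to 11660 in Ad-Lib and 9244 to 10714 in TAN, and the gate held 833 to 1287 cells against 364 to 801. Among cells of 2000 to 10000 UMIs alone, the median change was -0.53 in the Pdgfra gate and -0.84 in Icam1/Col15a1 cells, where the log2 change was -0.66 ± 0.14 for Fos and -0.95 ± 0.13 for Fosb. In these Icam1/Col15a1 cells 7 members were past the call rule, all but Jun, Junb and Maff, as were 79 of 5653 genes in either direction. Of the members 9 were without overlap, all but Maff. The share of all genes without overlap was not computed for these cells, so nothing is read from that count.

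**Figure D2:**
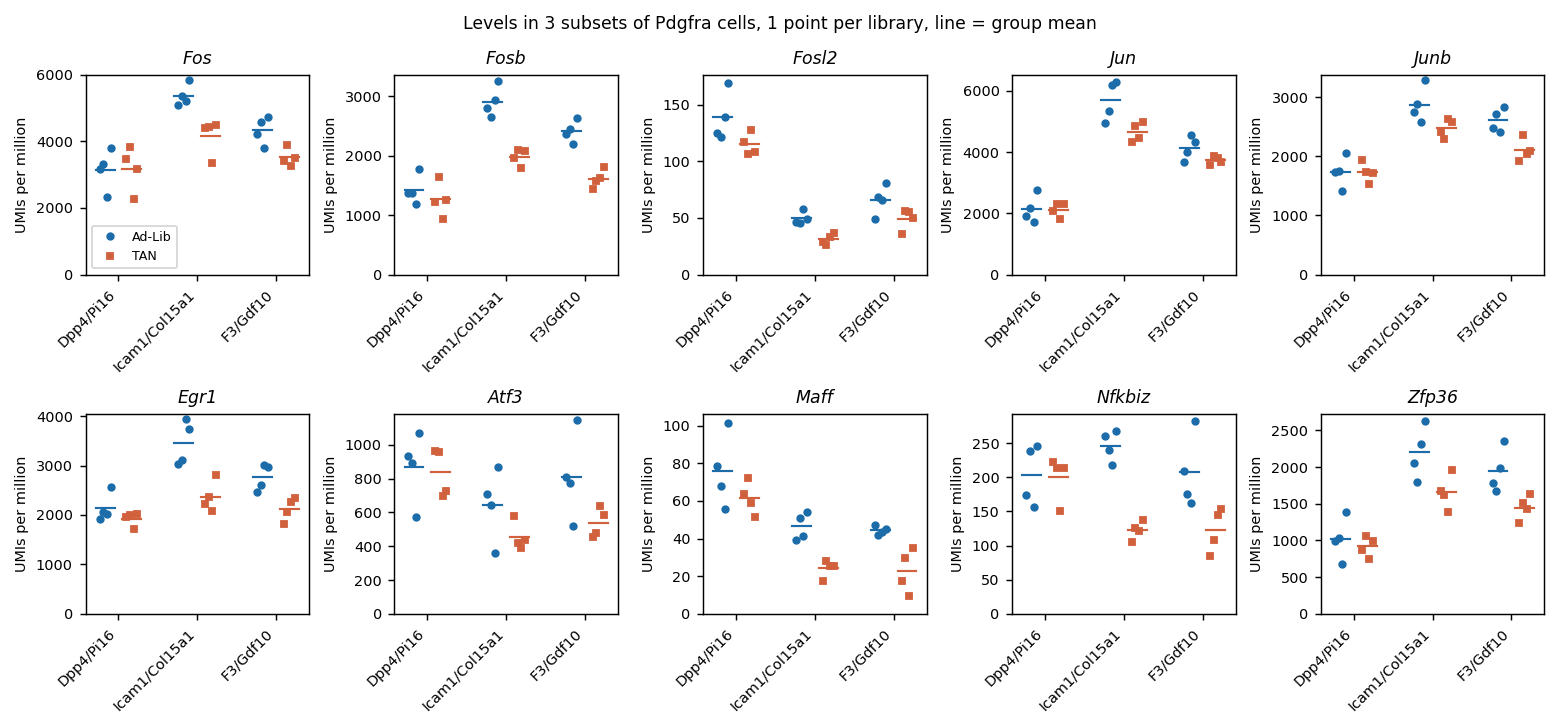
Levels of the 10 genes in 3 subsets of Pdgfra cells, in CPM on axes that start at 0, with 1 point per library and the line at the group mean. In Icam1/Col15a1 cells the Nfkbiz values of TAN (105.5 to 137.5) lie below those of Ad-Lib (217.3 to 267.5), whereas in Dpp4/Pi16 cells the groups overlap.

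The wider early-response network was read from 6 lists of 96 genes that are not members. These genes were tested in the same contrast, and the lists were drawn up with earlier results of these data known. They are therefore no independent evidence on the members, and their counts and p-values describe these libraries only. In Icam1/Col15a1 cells 12 of 81 tested genes were lower in TAN and 0 higher (edgeR, adjusted over all genes), where 0.932% of all genes were called lower. Leaving out Ad-Lib 7 lowered the count to 7, and leaving out Ad-Lib 5 raised it to 19. Of these, 6 belonged to the 25 tested immediate early genes, of which 24 had a lower mean in TAN. Btg2, an antiproliferative early gene, fell from 1071 ± 225 to 584 ± 21.8 CPM (SD over the 4 libraries of each group), which is -0.90 ± 0.12 in log2 (adjusted p = 0.000807). Klf4, a zinc finger factor of early adipogenesis, fell from 3187 ± 559 to 1992 ± 329 (-0.70 ± 0.13, adjusted p = 0.00689). Trib1, a pseudokinase that directs degradation of C/EBP proteins, fell by 1.27 ± 0.21 on the log2 scale (adjusted p = 0.00342) and Ier3, an early-response survival gene, by 0.77 ± 0.14 (adjusted p = 0.00714). Sgk1 and Nr4a1 completed the 6.

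The other calls came from 3 of the lists. Dusp1 and Dusp6, phosphatases that switch MAP kinases off, were the 2 called of 6 tested feedback inhibitors. Birc3, Ccl2 and Cxcl1 were the 3 called of 16 tested NF-κB genes, an apoptosis inhibitor and 2 chemokines. Among the 13 tested AP-1 and related bZIP subunits outside the members only Atf4, the integrated stress response factor, was called, falling from 346 ± 42.2 to 209 ± 35.7 CPM (-0.74 ± 0.12, adjusted p = 0.00231). None of the 6 mRNA decay factors and none of the 15 upstream kinases and serum response factor cofactors were called, with median log2 changes of -0.07 and -0.03.

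In F3/Gdf10 cells 13 of 80 tested genes were lower and 0 higher, 9 of them among 25 tested immediate early genes, where 0.532% of all genes were called lower. The count was 3 among cells of 2000 to 10000 UMIs, and it ran from 4 without Ad-Lib 7 to 14 as single libraries were left out. Klf6, a zinc finger factor, fell from 604 ± 73.6 to 368 ± 37.7 CPM (-0.79 ± 0.13, adjusted p = 0.00316). Ccn1, a matrix protein induced by serum and stretch, fell from 231 ± 56.3 to 98.3 ± 46.6 (-1.24 ± 0.21, adjusted p = 0.00565), and Cxcl1 from 535 ± 128 to 271 ± 72.2 (-1.07 ± 0.18, adjusted p = 0.00475). Btg2 (-0.82 ± 0.15, adjusted p = 0.00825) and Dusp6 (-1.12 ± 0.23, adjusted p = 0.021) fell here as well. In Dpp4/Pi16 cells 0 of 85 tested genes were called by edgeR, and DESeq2, which gave no adjusted p for 6, called 0, while 13 had an unadjusted p under 0.05, 10 of them lower. The count was 3 without Ad-Lib 5 and 4 with no filter on low counts. In the Pdgfra gate as a whole 5 of 90 were lower (0.580% of all genes), a count of 2 without TAN 2, 3 without Ad-Lib 7 and 9 without Ad-Lib 5. The 5 genes were Dusp6 (-1.05 ± 0.13, adjusted p = 0.00301), Birc3 (-0.73 ± 0.09, adjusted p = 0.00301), Trib1 (-1.11 ± 0.19, adjusted p = 0.0103), Btg2 (-0.67 ± 0.14, adjusted p = 0.0261) and Cxcl1 (-0.59 ± 0.14, adjusted p = 0.0472).

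**Figure D3:**
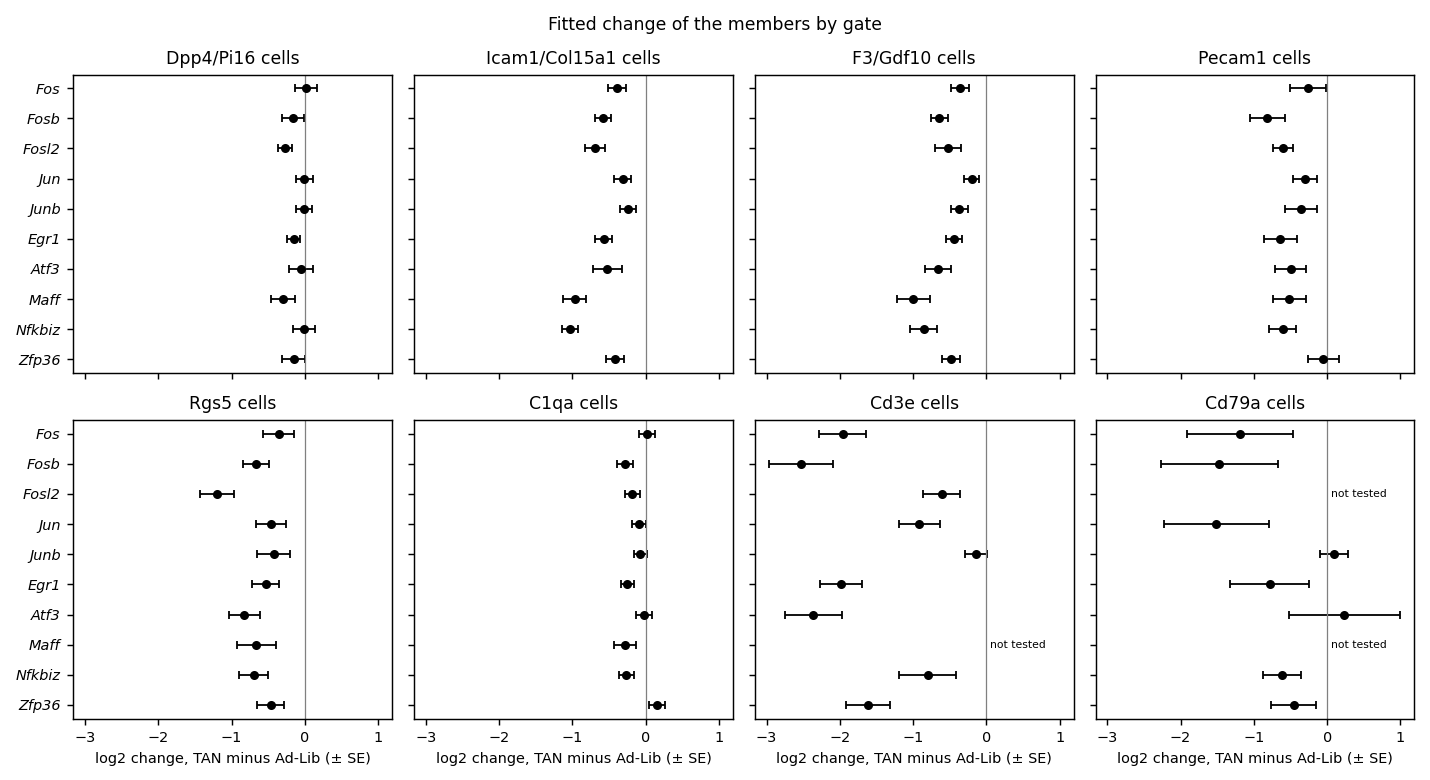
Log2 change of each of the 10 genes, TAN minus Ad-Lib, in each gate and Pdgfra subset, with the SE of the edgeR fit. The Dpp4/Pi16 and C1qa values lie close to 0 (medians -0.10 and -0.14), and those of the Cd3e gate have a median of -1.62.

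In Pecam1 endothelial cells all 10 members had a lower mean in TAN, with a median log2 change of -0.51, but the TAN libraries were scattered. Fosl2 stood at 86.46, 77.22, 85.36 and 94.24 CPM in Ad-Lib and at 53.31, 62.15, 38.44 and 66.77 in TAN (-0.60 ± 0.13), and it was the only member past the call rule, as were 0.873% of all genes. Fosb stood at 1131, 1136, 1025 and 1293 in Ad-Lib and at 485.1, 981.3, 345 and 728.9 in TAN (-0.82 ± 0.24), and Egr1 at 1931, 2066, 1914 and 2406 against 1240, 1749, 634.1 and 1588 (-0.64 ± 0.23). With Nfkbiz (135.1 to 152.2 in Ad-Lib, 54.21 to 122.2 in TAN) these were 4 members without overlap, as 5.45% of all genes were. TAN 6 was the lowest library for all of them and TAN 4 lay close to Ad-Lib for several. Fos at 2556, 3051, 2177 and 3027 against 2093, 3260, 1082 and 2392 (-0.26 ± 0.25) and Zfp36 (-0.05 ± 0.21) overlapped.

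Of the 91 other early-response genes tested in Pecam1 cells, 1 was called, the neutrophil chemokine Cxcl2, which fell from 18.3 ± 9.41 to 4.40 ± 2.38 CPM (-1.99 ± 0.43, adjusted p = 0.0216) with overlapping groups. The count was 0 when Ad-Lib 1, Ad-Lib 7 or TAN 2 was left out, 2 without Ad-Lib 5, 3 without TAN 4 and 2 with DESeq2. The mitochondrial share and the summed heat shock genes were higher in TAN in this gate. The median mitochondrial share was 1.71 to 2.18% in Ad-Lib and 2.53 to 3.27% in TAN, and the summed level of 12 heat shock genes was 3222 to 4484 in Ad-Lib and 4807 to 5648 in TAN, both without overlap. The chaperones Hspb1, from 1462 ± 332 to 2354 ± 133 CPM (0.71 ± 0.15, adjusted p = 0.0223), Hspe1 (0.59 ± 0.11, adjusted p = 0.0112) and Hsph1 (1.08 ± 0.21, adjusted p = 0.0125) rose. Of the 12 heat shock genes 4 had a negative log2 change, and the median over the 12 was 0.23. The 7 endothelial markers summed to 6745 to 7462 in Ad-Lib and 5962 to 6470 in TAN, the 4 migratory dendritic markers to 168.9 to 201.3 and 124.5 to 157.5, and the 5 mural markers to 839 to 1444 and 575.3 to 1087. The part of these measures in the members' levels was not tested.

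In the other gates and subsets examined the heat shock list overlapped between the groups. Its sum was 2662 to 3734 CPM in Ad-Lib and 2978 to 3851 in TAN in Icam1/Col15a1 cells, 2465 to 3067 and 2673 to 3781 in F3/Gdf10 cells, and 2317 to 2655 and 2471 to 3032 in Dpp4/Pi16 cells. Its sum was also measured in the C1qa gate (2927 to 3262 and 2946 to 3786), in the Cd3e gate (2257 to 2867 and 2409 to 2899) and in the Cd79a gate (871.1 to 1852 and 1623 to 2244). Of single heat shock genes, Hspe1 rose in the Cd3e gate from 287.9 ± 60.3 to 459 ± 47.3 CPM (0.79 ± 0.17, adjusted p = 0.0179), without overlap. Dnajb1, a co-chaperone of Hsp70, fell from 233 ± 50.6 to 119 ± 42.9 in Icam1/Col15a1 cells (-1.05 ± 0.19, adjusted p = 0.00564) and by 0.70 ± 0.16 in the Pdgfra gate (adjusted p = 0.0398). The time from dissection to capture is not given per library in the sources used here, so feeding and handling that went with it cannot be told apart.

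**Figure D4:**
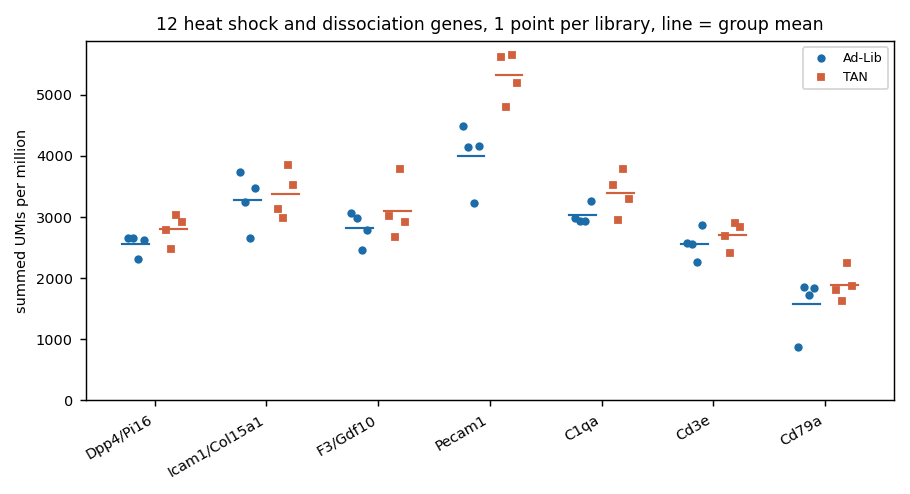
Summed level of 12 heat shock and dissociation genes in CPM in 7 gates, with 1 point per library and the line at the group mean. The groups are apart in the Pecam1 gate, where TAN (4807 to 5648) lies above Ad-Lib (3222 to 4484), and overlap in the other 6.

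In C1qa macrophages the differences between the groups were small. The median log2 change was -0.14, with 8 of 10 members lower in TAN, 0 past the call rule (0.283% of all genes) and 1 without overlap (3.02% of all genes). That member was Fosb, at 1876, 1799, 1887 and 2370 CPM in Ad-Lib and 1697, 1692, 1340 and 1688 in TAN (-0.28 ± 0.11). Fos stood at 4106, 4336, 4554 and 5259 in Ad-Lib and at 4445, 5084, 3972 and 4743 in TAN (0.02 ± 0.11), and Zfp36 was at 0.15 ± 0.11. Nfkbiz, at 1048, 1104, 1078 and 1325 against 949.8, 930.4, 807.2 and 1063 (-0.26 ± 0.10), overlapped through TAN 8 alone. Of 89 other early-response genes tested 0 were called by edgeR and 0 by DESeq2, which gave no adjusted p for 22, and 20 had an unadjusted p under 0.05, 15 of them lower. The edgeR count was 4 without Ad-Lib 5, 1 without Ad-Lib 1, Ad-Lib 3 or TAN 6, 3 among cells of 2000 to 10000 UMIs and 4 with no filter on low counts.

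In the Cd3e gate the cells themselves differed between the groups. Of the 10 members 9 could be tested (Maff was too low), all 9 had a lower mean in TAN, and the median log2 change was -1.62, or -0.64 among cells of 2000 to 10000 UMIs and -0.996 without Ad-Lib 1. Fosb stood at 615.6, 139.4, 746.5 and 769.3 CPM in Ad-Lib and at 163.7, 70.22, 51.57 and 80.25 in TAN (-2.53 ± 0.43). Fos stood at 1530, 451, 1696 and 1521 in Ad-Lib and at 441, 270.9, 233.2 and 241.7 in TAN (-1.96 ± 0.32). In both genes Ad-Lib 3 lay far below the other Ad-Lib libraries, close to TAN 2.

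Egr1 stood at 431.7, 131.8, 330.7 and 330.9 in Ad-Lib and at 37.11, 79.62, 68.23 and 67.21 in TAN (-1.99 ± 0.29). Atf3 stood at 431.7, 87.14, 258 and 176.2 in Ad-Lib and at 21.83, 53.63, 36.84 and 33.1 in TAN (-2.36 ± 0.39). Zfp36 had a log2 change of -1.62 ± 0.30 and with Fos, Fosb, Egr1 and Atf3 made 5 of 9 past the call rule, as were 3.50% of all genes. Fos, Egr1 and Atf3 did not overlap, as 7.92% of all genes did not. Junb was the exception, at 1565, 1412, 1746 and 1758 in Ad-Lib and 1587, 1153, 1013 and 1550 in TAN (-0.14 ± 0.15).

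Markers of other cells moved with these values. The 6 stromal markers summed to 2321, 522.8, 97.7 and 898.2 CPM in the Cd3e gate of Ad-Lib 1, 3, 5 and 7 and to 50.21, 32.07, 70.47 and 42.13 in TAN 2, 4, 6 and 8, with Pdgfra at 0 in all by the gate's definition. The 7 macrophage markers summed to 41.39 to 295 in Ad-Lib and 12.16 to 31.1 in TAN, again without overlap, the 4 natural killer cell markers to 189.1 to 418.4 and 48.69 to 89.5, and the 4 monocyte markers to 640.4 to 1195 and 318.5 to 458.4. The macrophage sums of Ad-Lib 1, 3, 5 and 7 were 295, 41.39, 45.09 and 232.1. Among these libraries Fos was lowest in Ad-Lib 3 and highest in Ad-Lib 5. Genes of the T cells moved as well, with the 6 T cell markers at 3095 to 3846 in Ad-Lib and 3998 to 4159 in TAN, and 6 resident or effector T genes at 3306 to 5466 and 1118 to 3552. The part of these cells in the members' levels was not tested beyond the selection described next. The gate held 32 to 125 cells per library in Ad-Lib and 72 to 457 in TAN. Doublets were not removed beyond the gate's own exclusion.

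A narrower selection of T cells, chosen after the data had been seen, shows how the values depended on the cells counted. Leaving out every cell with a UMI of Col1a1, Col1a2, Col3a1, Dcn, Lum, C1qb, C1qc or Csf1r removed 29.6 to 62.5% of the cells in Ad-Lib libraries and 19.6 to 29.7% in TAN, leaving 148 and 721 cells. Fos then stood at 1064 ± 594 in Ad-Lib and 244 ± 90.9 in TAN (-1.87 ± 0.39), with overlapping groups (237 to 1626 against 163.3 to 364.1). The median over the tested members in the narrower selection was -0.67, with Fosb at -2.34 ± 0.52, Atf3 at -1.48 ± 0.49, Zfp36 at -1.02 ± 0.30, Egr1 at -0.47 ± 0.33, Jun at -0.07 ± 0.24 and Nfkbiz turned to 0.35 ± 0.30. In this selection 1 of the 9 members, Fos, was past the call rule, as were 17 of 4807 genes in either direction, and the groups overlapped for all 9. Maff, which was not tested, stood at 0 to 1.646 CPM in Ad-Lib and 6.225 to 12.89 in TAN, higher in TAN without overlap. Among cells of 2000 to 10000 UMIs Fos was at -1.54 ± 0.38, Fosb at -2.55 ± 0.52 and Atf3 at -1.79 ± 0.37, and the last 2 were past the rule, as were 76 of 5122 genes.

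**Figure D5:**
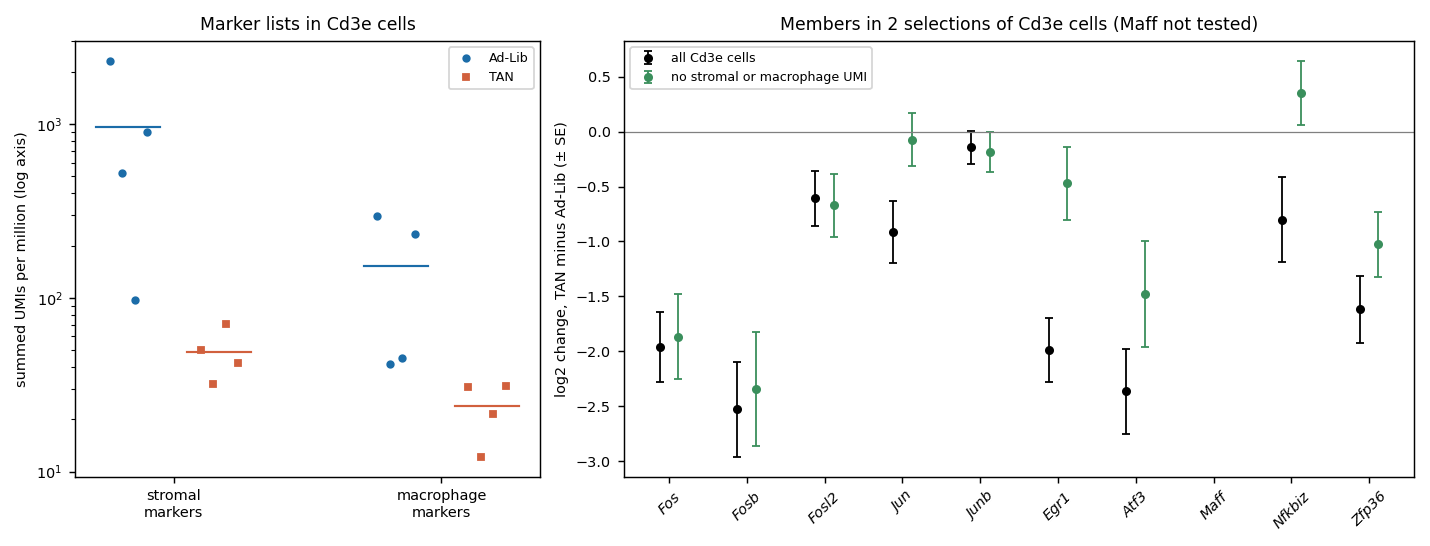
The Cd3e gate: summed levels of marker lists by library in CPM on a log axis with lines at the group means (left), and log2 change of the members with its SE in 2 selections of T cells (right). Stromal markers lie at 97.7 to 2321 in Ad-Lib and 32.07 to 70.47 in TAN, and the change of Fos is -1.96 ± 0.32 in all cells and -1.87 ± 0.39 without cells that carry stromal or macrophage UMIs.

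Of 74 other early-response genes tested in the Cd3e gate 11 were lower in TAN and 1 higher. The sum of both ran from 3 to 25 as single libraries were left out (25 without Ad-Lib 3) and was 1 among cells of 2000 to 10000 UMIs. Cxcl2, from 140 ± 86.8 to 4.54 ± 4.37 CPM (-4.32 ± 0.57, adjusted p = 0.00224), and Batf3, a bZIP factor known from dendritic cells, from 41.8 ± 15.4 to 4.09 ± 1.46 (-2.98 ± 0.36, adjusted p = 0.00224), changed most. Dusp1 (-1.38 ± 0.26, adjusted p = 0.00985), Klf4 (-1.80 ± 0.36, adjusted p = 0.014) and the small GTPase gene Rhob (-1.29 ± 0.30, adjusted p = 0.0273) fell, and the phosphatase gene Dusp10 rose (0.71 ± 0.19, adjusted p = 0.0477). After removal of the cells that carry stromal or macrophage UMIs 0 of 61 were called by edgeR and 4 by DESeq2, which gave no adjusted p for 47, with 14 at an unadjusted p under 0.05. That selection held fewer cells.

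In Cd79a B cells no difference was detectable in these libraries. Of 6602 genes, 0% were called lower in TAN by edgeR, with 118 at an unadjusted p under 0.05 and 0 called by DESeq2, and 0 of 8 tested members were past the rule. Of these, 6 had a lower mean in TAN, with a median log2 change of -0.70, and 0 were without overlap, as 0.136% of all genes were. Fos stood at 1466, 304.5, 536.2 and 1246 CPM in Ad-Lib and at 1181, 244.8, 230.4 and 316.5 in TAN (-1.18 ± 0.72), with high and low libraries in both groups. Ad-Lib 1 gave 21 cells with a median of 14789 UMIs and B cell markers at 79460 CPM, and Ad-Lib 7 gave 17 cells. Without Ad-Lib 1 the median change was -0.21. Of 66 other early-response genes 0 were called by edgeR and 0 by DESeq2, and 2 had an unadjusted p under 0.05.

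The likeness of the members to Fos was unequal. With log2 levels centred within each gate, the correlation with Fos over 40 points (5 gates in 8 libraries) was 0.969 for Fosb, 0.813 for Jun, 0.806 for Zfp36 and 0.656 for Egr1. It was 0.552 for Atf3, 0.314 for Nfkbiz and 0.253 for Junb, while Fosl2 and Maff were too low in the Cd79a gate to be compared. Among 5272 genes, the 5 outside the members most like Fos were Jund (0.851), Ier2 (0.830), Pim1 (0.824), Klf6 (0.816) and Cited2 (0.805). The levels hold the difference between Ad-Lib and TAN by which the members were chosen, and the points of 1 library share its handling and depth, so these values are descriptions. Library by library, Ad-Lib 7 had the highest level in 52 of 80 pairs of a member and a gate or subset, and TAN 6 the lowest in 38 of 80.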

How the data were processed

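Single-cell RNA was measured in 8 libraries, 4 Ad-Lib and 4 TAN, each with 25320800 to 37140950 UMIs. The deposited counts are raw UMIs per gene and barcode made by the authors with Cell Ranger on GRCm38 (mm10). The submitters' processing notes name version 3.0.2 and the file headers 6.0.1. Nothing was normalized by the authors in these files, and the lowest barcode holds 500 UMIs.

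Cells with 700 to 30000 UMIs, 200 to 8000 genes and at most 10% mitochondrial UMIs, the study's limits, were kept. Counts were summed per library and gate where a library had at least 10 cells of the gate, and no doublet caller was run. The sums were tested with edgeR 4.0.16 (R 4.3.3; filterByExpr, TMM scaling, quasi-likelihood fit, Benjamini-Hochberg adjustment over all genes tested in the gate), with a call at an adjusted p under 0.05 and at least 1.5-fold. Comparisons between gates and subsets had the library as a block. All tests were two-sided. The scripts were tested on simulated counts. A planned comparison of T cell classes is not reported here.

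The members and lists were chosen with earlier results of these data known. From the other lists, all called genes of a gate were named where there were 5 or fewer, otherwise the 5 with the smallest adjusted p and no overlap between groups. The other called genes of Icam1/Col15a1 cells, named with their lists, and Dusp10 were chosen after their values were seen. The alternatives were RLE scaling, DESeq2 1.42.0, no filter on low counts, gates at 1 UMI, narrower ranges of depth, mitochondrial limits of 5% and 20%, subclasses of cells, and leaving out each library. Promoter windows and gene spans came from RefSeq (GRCm38.p6) and GENCODE M21. Counting precision is set by the UMIs of a gate, and the p-values cover only the spread between these libraries.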

Additional observations from a re-analysis of the deposited data

Results flagged for a closer look

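In 13 of 160 groups of 4 libraries, the value of 1 library lay farther from the other 3 than Dixon's 95% critical value for 4 samples allows, where about 5% of groups would by chance. All values are in CPM.

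In stromal cells, Nfkbiz in the Pdgfra gate stood at 173.6 in TAN 8 against 139.1 to 144.8 in the other TAN libraries. Nfkbiz in Dpp4/Pi16 cells stood at 150.5 in TAN 6 against 213.1 to 222.8. Fos in Icam1/Col15a1 cells stood at 3335 in TAN 6 against 4405 to 4477.

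In C1qa macrophages, Ad-Lib 7 was high and TAN 6 low for a pair of AP-1 subunits. Fosb stood at 2370 in Ad-Lib 7 against 1799 to 1887 in the other Ad-Lib libraries, and at 1340 in TAN 6 against 1688 to 1697 in the other TAN libraries. Jun stood at 3748 in Ad-Lib 7 against 3050 to 3141, and at 2744 in TAN 6 against 3076 to 3138. Egr1 stood at 3531 in TAN 8 against 2803 to 2832.

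In lymphocytes, Fos in the Cd3e gate stood at 451 in Ad-Lib 3 against 1521 to 1696 in the other Ad-Lib libraries. In the Cd79a gate TAN 2 stood apart from the other TAN libraries, with Fos at 1181 against 230.4 to 316.5, Jun at 434.5 against 135.4 to 160.4 and Atf3 at 122.6 against 11.46 to 29.63. Its B cell markers summed to 39564. Maff in the same gate stood at 5.618 in Ad-Lib 3 and at 0 in the other Ad-Lib libraries. That value rests on 10 UMIs of 1779855, whereas the others held 93902 to 257135 UMIs, too few to show such a level reliably.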

How the results depend on the processing

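Over all alternatives, medians stayed within the spread between libraries and counts within 1.5 times in 285 recomputed values, while 7 medians moved further and 19 counts were higher and 21 lower. Values of single genes stayed within that spread or kept their call in 1720, while 19 moved further and 210 no longer passed the call rule. Among cells of 2000 to 10000 UMIs the median log2 change of the members was -0.5251 in the Pdgfra gate, -0.8442 in Icam1/Col15a1 cells and -0.6422 in the Cd3e gate, and the calls among other early-response genes were 3 in F3/Gdf10, 3 in C1qa and 1 in Cd3e cells. In the Cd3e gate the median was -1.049 with gates at 1 UMI and -0.672 without cells with stromal or macrophage UMIs, with 0 other genes called in the latter. With no filter on low counts, other genes called were 4 in Dpp4/Pi16, 23 in Icam1/Col15a1, 21 in F3/Gdf10, 4 in Pecam1, 4 in C1qa and 27 in Cd3e cells. In Pecam1 cells they were 0 with gates at 1 UMI, 2 with DESeq2 and 2 without arterial, venous and lymphatic cells. Of single genes, 3 values reversed: Nfkbiz in Cd3e cells without cells with stromal or macrophage UMIs (0.35), and Egr1 in Cd79a cells at 2000 to 10000 UMIs (0.081) and without Ad-Lib 1 (0.18). Over the libraries left out, the Egr1 log2 change, Cd79a gate, ran from -1.089 to 0.1788. The causes were not tested.

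Leaving out 1 library at a time, the median ran from -0.4083 to -0.2848 in Pdgfra, -0.2079 to 0.02351 in Dpp4/Pi16 (0.02351 without Ad-Lib 7, 0.002276 without TAN 6), -0.5829 to -0.4535 in Icam1/Col15a1, -0.5762 to -0.4034 in F3/Gdf10, -0.6376 to -0.3373 in Pecam1, -0.1791 to -0.09259 in C1qa, -1.93 to -0.996 (without Ad-Lib 1) in Cd3e and -0.9194 to -0.2055 in Cd79a cells. Other genes called ran from 2 (without TAN 2) to 9 (Ad-Lib 5) in Pdgfra, where they were 3 without Ad-Lib 7, from 0 to 3 (Ad-Lib 5) in Dpp4/Pi16, from 7 (Ad-Lib 7) to 19 (Ad-Lib 5) in Icam1/Col15a1, and from 4 (Ad-Lib 7) to 14 in F3/Gdf10, where they were 5 without TAN 2, 7 without Ad-Lib 1 or TAN 4 and 8 without Ad-Lib 3 or TAN 8. They ran from 0 (Ad-Lib 1, Ad-Lib 7 or TAN 2) to 3 (TAN 4) in Pecam1, where they were 2 without Ad-Lib 5, from 0 to 4 (Ad-Lib 5) in C1qa, and from 3 (Ad-Lib 7, TAN 4 or TAN 6) to 25 (Ad-Lib 3) in Cd3e, where they were 4 without Ad-Lib 1 and 5 without Ad-Lib 5. They stayed at 0 in Cd79a cells. The counts of members called between gates and subsets did not move as libraries were left out. In Ad-Lib libraries alone they were 7 for Pecam1 and 3 for C1qa against Pdgfra, and 8 for Icam1/Col15a1 and 5 for F3/Gdf10 against Dpp4/Pi16, the last also 5 in TAN libraries alone. No paired analysis was possible because the groups share no replicate numbers. Depth limits the small gates, with 10 Fscn1, 13 Ncr1, 17 Cd79a, 21 Ly6c2 and 32 Cd3e cells in the smallest libraries used.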

Other observations

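Rgs5 mural cells (1174 cells with at least 2 UMIs of Rgs5 and none of the 5 lineage genes) also had all 10 members at a lower mean in TAN, with a median log2 change of -0.60. Fosl2 stood at 148.1, 107.3, 89.63 and 139.2 CPM in Ad-Lib and at 75.67, 50.74, 27.66 and 49.12 in TAN, a log2 change of -1.20 ± 0.23 (SE) without overlap. Over all genes of this gate 55 of 6140 were called lower in TAN. Capillary genes summed to 523.6 to 778.5 in Ad-Lib and 800 to 1156 in TAN, without overlap, and their part in the members' levels was not tested. Of 69 other early-response genes tested, 1 was called, the orphan nuclear receptor gene Nr4a2, which fell from 69.7 ± 8.69 to 30.2 ± 12.8 (-1.19 ± 0.25, adjusted p = 0.0155, edgeR). Dnajb1 fell as well (-0.79 ± 0.18, adjusted p = 0.0295).

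Fos was also measured in rarer cells. Cpa3 mast cells had 9406 and 11949 CPM in the 2 libraries with at least 10 such cells. Ncr1 natural killer cells averaged 496 ± 142 and cells of the Ly6c2 gate 699 ± 215 (SD, n = 8). The Ly6c2 gate is given no cell type, since it held monocyte markers at 1813 to 3261 CPM, natural killer cell markers at 359.5 to 3832 and T cell markers at 465.9 to 2101. In the Fscn1 gate all 9 tested members had a lower mean in TAN, with a median of -1.46, while the libraries of TAN ran from 201.6 to 2171 for Fos and those of Ad-Lib with at least 10 cells from 457.3 to 3740. Endothelial markers summed to 2385 ± 2134 in Ad-Lib and 887.6 ± 1388 in TAN in that gate, capillary genes to 1761 ± 1460 and 787.9 ± 1149, mural markers to 884.7 ± 1180 and 481.4 ± 643.4, and migratory dendritic markers to 3480 ± 2364 and 3776 ± 1700, so the gate is given no cell type, and the part of these cells in the members' levels was not tested. In the Ly6c2 gate 5 of 9 tested members were lower, with a median of 0.00.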
